A study of Mus musculus with 6 samples.

Results

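The genes described here encode the proteins of the cytosolic ribosome. They were taken from the GENCODE M21 annotation of mouse (build mm10, GRCm38) by symbol: Rpl or Rps with a number and an optional letter, Rplp0, Rplp1, Rplp2, Rpsa and Fau, with kinases, binding proteins and pseudogenes left out. The rule found 81 of the 21951 annotated protein-coding genes. Of these, 43 encode proteins of the large subunit, 31 proteins of the small subunit, 3 the stalk of the large subunit, and 4 are paralogues whose symbols end in l. A level could be computed for 80 of them, since all but 193 of the 677 exonic bases of Rpl24 lie in another annotated gene too, and 77 passed the minimum for testing among 12045 tested genes. Rpl3l, Rpl10l and Rpl39l, paralogues best known from striated muscle and testis, were listed at 0 in all 6 libraries and were not tested.

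RNA-seq had been made from oligodendrocyte precursor cells (OPCs), the glial cells that divide and go on to form myelinating oligodendrocytes. There were 3 libraries of Gde3 knockout (KO) cells and 3 of wild-type (WT) cells, all on the C57BL/6 background. Cells of both genotypes came from the spinal cords of pups at postnatal day 0.5, were selected with magnetic beads for the A2B5 epitope, and were plated at equal density. The culture lasted 16 h in medium for proliferation, with forskolin at 5 µM and with PDGF and CNTF at 10 ng/mL each. Gde3 is the other name of Gdpd2, an enzyme of the cell surface that sheds proteins anchored by glycosylphosphatidylinositol. The labels do not say how the knockout allele was made, whether pups were pooled, or whether the replicates came from separate litters, so the p-values below measure the spread between these libraries only.

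A ribosome holds 1 copy of most of these proteins, together with ribosomal RNA made by RNA polymerase I, and a cell that grows makes all of them in matched amounts. Their mRNAs are among the most abundant of dividing cells, and most begin with a 5′ terminal oligopyrimidine (TOP) run, through which mTORC1 and LARP1 set how strongly they are translated. The genes have also left many processed pseudogenes in the mouse genome, and sequencing reads of the parent gene can align to such copies.

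The starts of some of the genes named below are shown first, because the pyrimidine run is the feature that these promoters are known for. Rps13 and Rps15, also named below, are not shown: their longest runs near the annotated start were 2 and 3 pyrimidines. Sequences are from RefSeq on GRCm38.p6, whose promoter table held 61 of the 81 genes. Each line gives 30 bases before the annotated start and 20 bases from it on, 5′ to 3′ on the transcribed strand. Capitals mark the longest unbroken run of C and T that touches the 5 bases on either side of the start.
Rpl7a (chr2:26910777-26910826, plus strand): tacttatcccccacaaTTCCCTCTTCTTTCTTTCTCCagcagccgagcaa
Fau (chr19:6057917-6057966, plus strand): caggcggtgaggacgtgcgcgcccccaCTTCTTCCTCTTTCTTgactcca
Rpl38 (chr11:114668550-114668599, plus strand): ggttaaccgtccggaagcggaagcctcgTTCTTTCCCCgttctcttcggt
Rps6 (chr4:86857348-86857397, minus strand): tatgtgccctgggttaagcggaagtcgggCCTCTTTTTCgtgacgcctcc
Rps27 (chr3:90213629-90213678, minus strand): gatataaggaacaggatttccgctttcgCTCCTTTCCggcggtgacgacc
Rps28 (chr17:33824543-33824592, minus strand): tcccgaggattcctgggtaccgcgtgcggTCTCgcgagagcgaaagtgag
Rpsa (chr9:120127736-120127785, plus strand): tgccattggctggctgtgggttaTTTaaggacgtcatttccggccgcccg
Rpl23 (chr11:97782420-97782469, minus strand): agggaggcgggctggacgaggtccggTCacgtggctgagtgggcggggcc
Rpl22 (chr4:152325696-152325745, plus strand): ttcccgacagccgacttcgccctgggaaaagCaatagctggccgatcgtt
Rpl7a, Fau, Rpl38, Rps6 and Rps27 have a run of at least 8 pyrimidines across the annotated start, and Rps28, Rpsa, Rpl23 and Rpl22 do not. Among the 61 genes, 16 (26.2%) had such a run across the start, against 3.81% of the 27025 promoters of the table. With runs within 5 bases of the start counted, the numbers were 21 (34.4%) against 9.63%. The first annotated base was C in 20 of the 61 (32.8%), against 16.2% of all promoters. The search was for letters only, at 1 annotated start per gene, and a start annotated a few bases away from the one that is used would hide or create a run.

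The data are transcript assemblies, 1 per library, in which each transcript carries its FPKM (a density of sequenced fragments scaled to length and library size). Transcripts per assembly numbered 32098 to 41319 for KO and 32693 to 56807 for WT. WT replicate 1 was assembled in shorter pieces than the others, with a median length of 438 nt and 36.8% of its transcripts under 300 nt, against 1173 to 1830 nt and 2.16% to 6.61% in the other 5 libraries. Read numbers are unknown, and relative depth ran from 0.759 (WT replicate 1) to 1 (WT replicate 3). The targeted gene, Gdpd2, ranged over 0.667 to 1.78 FPKM in KO. In WT it ranged over 2.05 to 2.85 FPKM with transcripts of any length counted, above every KO library, but WT replicate 1 was at 0 under the 300 nt minimum used for all levels below. That minimum leaves out most of the listed FPKM in every library: transcripts under 300 nt held 97.95% to 99.96% of it. All 7 OPC markers examined were present in all 6 libraries, from 37.5 FPKM for Cspg4 to 518 FPKM for Olig1, with summed levels of 1065 to 1304 FPKM in KO and 908 to 1423 FPKM in WT. Over the 12045 tested genes, KO and WT libraries of the same replicate number deviated together from their group means, and along the first principal component, with 36.8% of the variance, replicate 1 of KO and of WT lay on 1 side and the remaining 4 libraries on the other. In the descriptions, the identifiers of both replicate 1 libraries carry a middle number of 3 and those of replicates 2 and 3 a middle number of 4, and the labels do not say what it stands for.

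The 77 tested genes were among the most strongly expressed of these cells. Their mean level over the 6 libraries ran from 6.80 to 1815 FPKM with a median of 504 FPKM, and 74 of them averaged 100 FPKM or more. Their share of the summed FPKM of all protein-coding genes was 15.4%, 11.6% and 12.2% in KO and 16.2%, 11.9% and 11.5% in WT, each in the order of replicates 1 to 3. The median level of the small subunit genes was 567 FPKM and that of the large subunit genes 444 FPKM. Although the ribosome needs their products in matched amounts, their FPKM differed widely: the coefficient of variation over the 77 genes was 0.650 to 0.753 in the 6 libraries. When only coding bases were used it was 0.527 to 0.584, over the 76 genes with a value there.

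**Figure D1:**
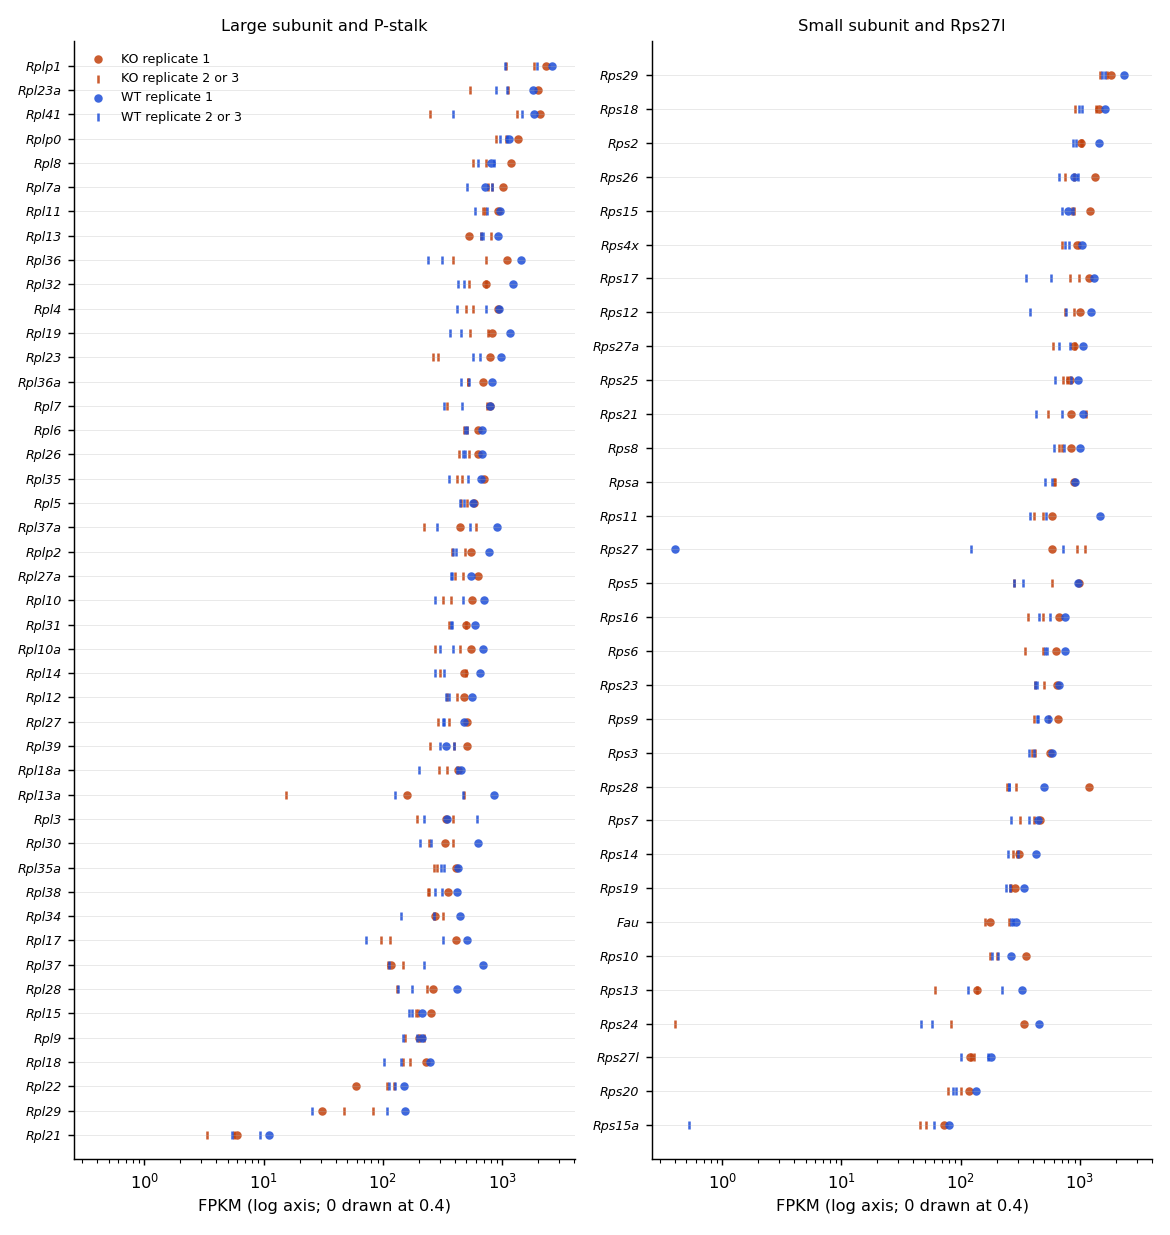
Level of each of the 77 tested ribosomal protein genes in each library (FPKM on a log axis, with 0 drawn at 0.4). Red marks are KO and blue marks WT, large dots are replicate 1 and small bars replicates 2 and 3; genes run from the highest to the lowest mean. For most genes both large dots lie to the right of the bars, and Rpl21 at 6.80 FPKM stands far below the rest.

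The highest mean level belonged to Rplp1, an acidic protein of the stalk that recruits elongation factors to the ribosome. In replicates 1, 2 and 3, Rplp1 was at 2339.5, 1858 and 1080.1 FPKM in KO, against 2611, 1956 and 1046 FPKM in WT. Rps29 of the small subunit followed at 1825, 1458 and 1700.2 FPKM in KO and 2353, 1527 and 1621 FPKM in WT. In both genes the KO and WT values overlapped, and the ranges of the genes overlapped too, so their order was within the spread between libraries. Rpl23a, Rpl41 and Rps18 came next with means of 1241, 1227 and 1224 FPKM. Rpl41, the shortest ribosomal protein, spread most among these 5, with 2082, 1326 and 246 FPKM in KO and 1855, 1469 and 384 FPKM in WT: replicate 3 was low in both genotypes. Its assembly differed there too. In KO replicate 3, 96.9% of its exonic bases were assembled, but every transcript over them overlapped another gene more. The longest Rpl41 transcript was 1703 nt in WT replicate 3, against 708 and 506 nt in KO and 508 and 590 nt in WT replicates 1 and 2. The part of this in the low levels was not tested.

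At the lower end, Rpl21 averaged 6.80 FPKM, Rps15a 51.3, Rpl29 74.5, Rps20 101 and Rpl22 113 FPKM. For Rps15a and Rps20 the annotated exons run far beyond the coding sequence (5395 and 3706 exonic bases), and over coding bases alone their means were 412 and 687 FPKM. Rps15a stood at 0.524 FPKM in WT replicate 2, against 45.7 to 79.1 FPKM in the other 5 libraries, but at 61.5 FPKM when transcripts under 300 nt were counted. Rpl21 and Rpl29 belong to the genes with the most near-identical copies: 57 and 28 other annotated genes held a sequence of at least 95% identity over at least 80% of the coding length. Of the 81 genes, 73 had at least 1 such copy. How the authors' aligner placed reads that match several sites, and its part in these levels, was not tested.

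Across the family, levels did not follow the number of copies in order. The median level was 512 FPKM for the 6 tested genes without a copy, 497 FPKM for the 29 with 1 to 4 copies, 535 FPKM for the 25 with 5 to 9, and 466 FPKM for the 17 with 10 or more. Rpl7a, a large subunit protein with 32 copies, averaged 775 FPKM, and Rps12 and Rpl23a with 23 and 19 copies averaged 837 and 1241 FPKM. Rpl17 with 22 copies averaged 252 FPKM and Rpl29 with 28 copies 74.5 FPKM.

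**Figure D2:**
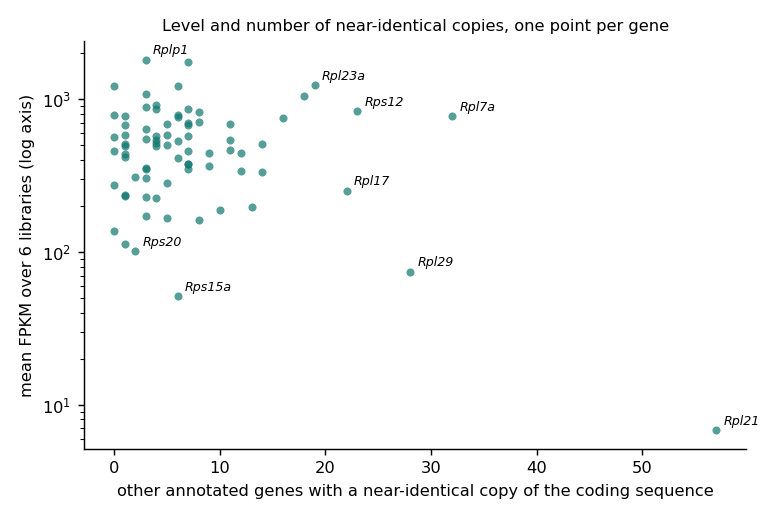
Mean level over the 6 libraries (FPKM, log axis) against the number of other annotated genes that hold a near-identical copy of the coding sequence, 1 point per tested gene. Rpl21 with 57 copies and 6.80 FPKM lies alone at the lower right, while Rpl7a with 32 copies lies at 775 FPKM.

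The first comparison asked whether loss of Gde3 changed the expression of ribosomal protein genes in OPCs. No gene of the 77 passed the threshold: 0 were called by limma at an adjusted p under 0.05 over all 12045 genes, of which 0% were called higher and 0.0083% (1 gene) lower in KO. In KO 38 of the 77 were higher and 39 lower, against 48.6% higher and 51.4% lower among all tested genes. Their median log2 difference was -0.02, beside -0.01 over all tested genes. At an unadjusted limma p under 0.05 there was 1 of the 77, Fau, where the background was 1.62% of all genes in either direction, 0.913% higher and 0.706% lower in KO. In bulk RNA a change in the number of cells of a type and a change in RNA per cell cannot be told apart.

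Fau (chromosome 19, 6057844 to 6059524, plus strand) encodes a ubiquitin-like protein fused to the small subunit protein RPS30. It was at 176, 159 and 254 FPKM in KO, against 289, 262 and 274 FPKM in WT. All 3 KO libraries were below all 3 WT libraries, the only tested ribosomal protein gene for which this held (3.03% of all tested genes had KO below WT without overlap, and 2.03% had KO above WT, which held for 0 of the 77). The log2 difference was -0.51 ± 0.20 (SE, limma unadjusted p = 0.0439, adjusted p = 0.9999), so it did not pass. Rps27a, a small subunit protein made as a fusion with ubiquitin, showed no such separation, with 801 ± 179.7 FPKM in KO and 855 ± 202 FPKM in WT (SD, n = 3 each).

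After Fau, the lower genes in KO with the smallest unadjusted p among those averaging at least 10 FPKM were Rps13 and Rpl23. Rps13 of the small subunit (chromosome 7, 116331505 to 116334195, minus strand) was at 136, 138 and 60.4 FPKM in KO, against 327, 115 and 221 FPKM in WT, with overlap through WT replicate 2. Rpl23 of the large subunit (chromosome 11, 97777527 to 97782437, minus strand), which also binds the p53 regulator MDM2 in human cells, was at 783, 261 and 291 FPKM in KO, against 969.9, 654 and 573 FPKM in WT. KO replicates 2 and 3 of Rpl23 were the lowest of the 6 libraries, and KO replicate 1 lay inside the WT range. The log2 differences were -0.95 ± 0.49 for Rps13 and -0.87 ± 0.47 for Rpl23 (SE, limma adjusted p = 0.9999 each). In both genes the lowest libraries had the longest assembled transcripts. The longest Rpl23 transcript was 471, 973 and 858 nt in KO, against 418, 448 and 493 nt in WT. For Rps13 it was 1057, 850 and 1847 nt in KO, against 552, 1417 and 553 nt in WT. The part of transcript length in these levels was not tested.

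The genes higher in KO with the smallest unadjusted p were Rps27, Rpl7a and Rps15. Rpl7a (chromosome 2, 26910764 to 26913318, plus strand) was at 1021, 765 and 818 FPKM in KO, against 719, 818 and 506 FPKM in WT. Rps15 (chromosome 10, 80292453 to 80294114, plus strand), a small subunit protein, was at 1224, 891 and 858 FPKM in KO, against 794, 704 and 882 FPKM in WT. For both genes KO replicate 1 was the highest library and the genotypes overlapped, with log2 differences of 0.37 ± 0.25 and 0.31 ± 0.22 (SE, limma adjusted p = 0.9999 each).

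Rps27 (chromosome 3, 90212522 to 90213651, minus strand), a zinc finger protein of the small subunit, had a level in WT replicate 1 that depended on the length minimum. It was at 583, 1099 and 939 FPKM in KO, against 0, 121 and 727 FPKM in WT. The longest Rps27 transcript of WT replicate 1 was 294 nt, under the 300 nt minimum used for gene levels. With shorter fragments counted, the KO libraries stood at 583, 1099 and 939 FPKM and the WT libraries at 1982, 1080.0 and 727 FPKM. The log2 difference was then -0.46, against 4.24 ± 2.31 with the minimum (SE, limma unadjusted p = 0.116).

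By subunit, 17 of 31 small subunit genes and 20 of 42 large subunit genes were higher in KO, with median log2 differences of 0.02 and -0.02. The stalk proteins spanned the same range. Rplp0, the scaffold of the stalk, averaged 1109 ± 236 FPKM in KO and 1063 ± 94.6 FPKM in WT, and Rplp2 471 ± 85.4 FPKM in KO and 521 ± 216 FPKM in WT. Rpl5 and Rpl11, which carry 5S ribosomal RNA and bind MDM2 when ribosome assembly fails, averaged 513 ± 65.9 and 778 ± 128 FPKM in KO, against 495 ± 61.9 and 764 ± 179 FPKM in WT. Rps6, the substrate of S6 kinase, averaged 485 ± 141 FPKM in KO and 595 ± 131 FPKM in WT (SD, n = 3 each throughout).

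The X-linked Rps4x, Rpl10, Rpl36a and Rpl39 overlapped between genotypes as well. Rps4x of the small subunit averaged 875 ± 153 FPKM in KO and 864 ± 152 FPKM in WT. Rpl10 of the large subunit averaged 416 ± 128 FPKM in KO and 479.9 ± 212 FPKM in WT (SD, n = 3 each). Rps19, the gene most often mutated in human Diamond-Blackfan anaemia, was at 286, 258 and 263 FPKM in KO, against 336, 257 and 241 FPKM in WT. Rps27l, a paralogue of Rps27 that p53 induces, was at 120.4, 128 and 121 FPKM in KO, against 178, 169.9 and 101 FPKM in WT.

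The balance between the genotypes moved with single libraries. Without KO replicate 1, 17 of the 77 genes were higher in KO (median log2 difference -0.14), and without WT replicate 1, 60 of 77 were (0.21). Over all tested genes these medians were 0.01 and -0.01. Taken by replicate number, KO minus WT had a median of -0.21 for replicate 1 (20 of 77 higher), -0.06 for replicate 2 (30 higher) and 0.20 for replicate 3 (52 higher). The medians over all tested genes were -0.03, 0 and 0.02 in the same order. With the replicate number as a block, 4 of the 77 genes had an unadjusted limma p under 0.05 where 4.23% of all genes did, namely Rpl21, Rpl23, Rpl38 and Fau, all lower in KO, and 0 passed the adjusted threshold. Microglial markers moved with genotype: 7 of 7 tested genes of the list were higher in KO (0 by the adjusted test), with summed levels of 92.5 to 173 FPKM in KO and 51.7 to 72.5 FPKM in WT, and P2ry12 was at 0 in 1 KO and 3 WT libraries. Their part in the values above was not tested.

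**Figure D3:**
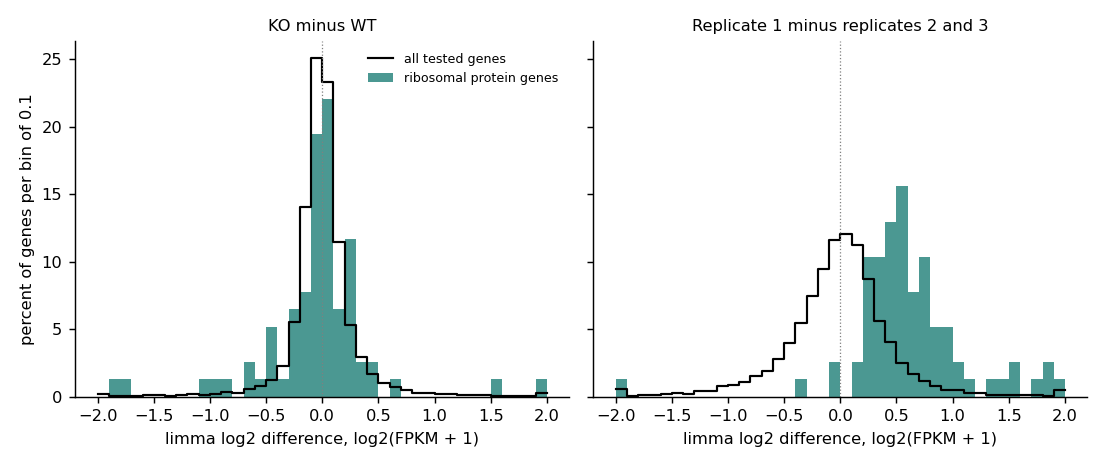
Distribution of limma log2 differences (log2 of FPKM + 1, bins of 0.1, values beyond the axis in the outer bins) for the 77 ribosomal protein genes (filled) and all 12045 tested genes (line). KO minus WT is centred near 0 for both (medians -0.02 and -0.01), while replicate 1 minus replicates 2 and 3 lies to the right for the ribosomal protein genes (medians 0.53 and 0.01).

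The second comparison set the replicate 1 libraries, 1 per genotype, against the 4 libraries of replicates 2 and 3, with genotype as a term. The split follows the numbers in the titles and the identifiers, and it was chosen knowing that the replicate 1 libraries stood apart. By the sign of the log2 difference, ribosomal protein genes were higher in replicate 1 in 73 of 77 cases, against 50.6% of all tested genes, with a median log2 difference of 0.53 beside 0.01 over all. Both replicate 1 libraries were above all 4 others for 49 of the 77 genes, where the background was 18.7%, and below all 4 for 0 of 77, where it was 21.3%. No gene of the 77 passed the adjusted limma threshold, by which 0.349% of all genes were called higher and 1.72% lower in replicate 1. At an unadjusted limma p under 0.05 there were 35 of the 77, all higher, where the background was 9.61% higher, 14.5% lower and 24.2% in either direction. That count depended on single libraries: it fell without WT replicate 1 and without KO replicate 1. The count over all tested genes fell as well. Each of these fits kept 1 replicate 1 library, and the median log2 difference of the 77 genes was 0.39 and 0.64.

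The summed FPKM of the 77 genes shows the same split in each library. It was 51944 and 57910 in replicate 1 of KO and WT, against 36275 and 38073 in KO replicates 2 and 3 and 36046 and 33464 in WT replicates 2 and 3. WT replicate 1 was the highest of the 6 libraries for 54 of the 77 genes, which held for 27% of all tested genes, and KO replicate 1 for 19. Within KO alone the median log2 difference was 0.39 and within WT alone it was 0.64. Over the 77 genes, the median ratio of the replicate 1 mean to the mean of the other 4 libraries was 1.44.

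**Figure D4:**
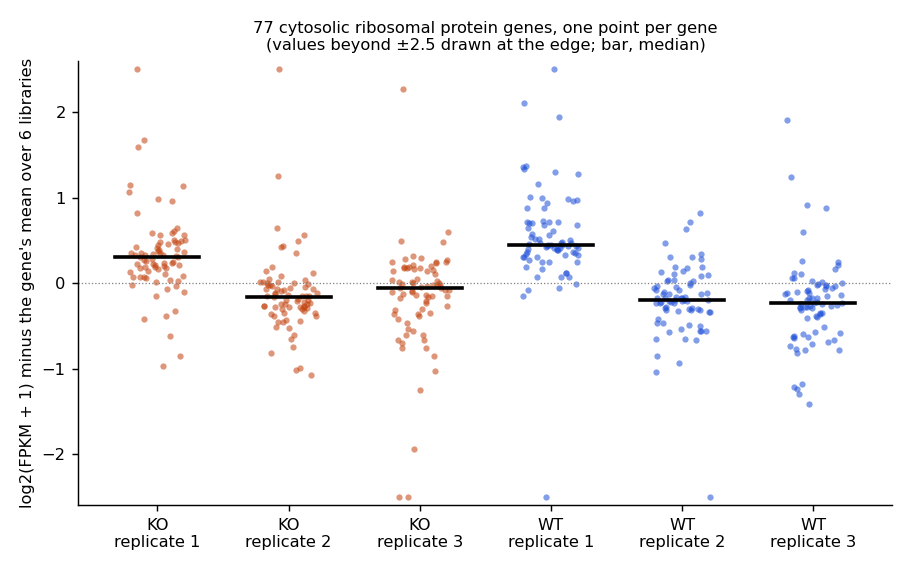
Each point is 1 of the 77 ribosomal protein genes in 1 library, as its log2(FPKM + 1) minus its mean over the 6 libraries, and the bar is the median (values beyond 2.5 are drawn at the edge). The medians are 0.30 and 0.45 in replicate 1 of KO and WT, -0.17 and -0.06 in KO replicates 2 and 3, and -0.19 and -0.24 in WT replicates 2 and 3.

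The smallest adjusted p among the 77 genes belonged to Rps28, Rpsa and Rpl38. Rps28, a small subunit protein (chromosome 17, 33819027 to 33824562, minus strand), was at 1193 and 501 FPKM in replicate 1 of KO and WT, against 245.3 and 292 FPKM in KO replicates 2 and 3 and 255 and 252 FPKM in WT replicates 2 and 3. KO replicate 1 lay far above every other library, and 89.4% of the Rps28 exonic bases were assembled there, against 53.0% to 58.8% in the other 5. The log2 difference was 1.57 ± 0.29 (SE, limma adjusted p = 0.0671), and 0.98 without KO replicate 1.

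Rpsa (chromosome 9, 120127689 to 120132369, plus strand) encodes a small subunit protein that is also known as the laminin receptor precursor. It was at 890.2 and 911 FPKM in replicate 1 of KO and WT, against 601 and 623 FPKM in KO replicates 2 and 3 and 577 and 511 FPKM in WT replicates 2 and 3. The replicate 1 libraries were close to each other and clear of the rest, with a log2 difference of 0.64 ± 0.12 (SE, limma adjusted p = 0.0717). Rpl38 (chromosome 11, 114668524 to 114672331, plus strand), a large subunit protein needed for translation of Hox mRNAs in mouse embryos, was at 348 and 418 FPKM in replicate 1, against 239.5 and 242 FPKM in KO and 275 and 313 FPKM in WT replicates 2 and 3. Its log2 difference was 0.52 ± 0.11 (SE, limma adjusted p = 0.0791). This rested on the length minimum: with shorter fragments counted, Rpl38 stood at 659.7 and 767 FPKM in replicate 1 of KO and WT, against 456 and 692 FPKM in KO and 576 and 621 FPKM in WT replicates 2 and 3. KO replicate 3 then lay above KO replicate 1, and the log2 difference was 0.30 (limma adjusted p = 0.445).

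Without the genotype term, 4 of the 77 genes passed the adjusted limma threshold, all higher in replicate 1, where 5.58% of all genes passed in either direction and 1.34% passed as higher. They were Rpsa (adjusted p = 0.0392), Rps3 (0.0425), Rpl27 (0.0425) and Rps23 (0.0477). Rps3, which lines the mRNA entry of the small subunit and has a role in DNA repair, was at 564 and 579.9 FPKM in replicate 1 of KO and WT, against 393 and 420.4 FPKM in KO replicates 2 and 3 and 413 and 372 FPKM in WT replicates 2 and 3. It has no near-identical copy in the annotation.

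Large subunit genes were higher in 40 of 42 cases (median log2 difference 0.56), small subunit genes in 29 of 31 (0.52) and stalk genes in 3 of 3 (0.65). Rplp2 averaged 657 FPKM in replicate 1, against 415 ± 52.0 FPKM in replicates 2 and 3 (SD, n = 4). Rpl11 averaged 939 FPKM in replicate 1, against 687 ± 64.3 FPKM, and Rps6 685 FPKM, against 467 ± 84.1 FPKM. By near-identical copies, the median log2 difference was 0.52 for the 6 genes with no copy, 0.65 for the 29 with 1 to 4, 0.52 for the 25 with 5 to 9, and 0.49 for the 17 with 10 or more.

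The 4 genes with a log2 difference below 0 were Rps27, Rpl22, Fau and Rpl13. For Rps27 the difference of -4.51 ± 1.82 (SE, limma adjusted p = 0.218) rested on the listed 0 of WT replicate 1, and it was 0.18 when short fragments were counted. Rpl22, a large subunit protein whose loss in mice leaves most cells viable (chromosome 4, 152325742 to 152334071, plus strand), was at 59.7 and 149 FPKM in replicate 1 of KO and WT, against 108 and 123 FPKM in KO replicates 2 and 3 and 112 and 126 FPKM in WT replicates 2 and 3. KO replicate 1 was the lowest of the 6 libraries and WT replicate 1 the highest. Only 14.0% of the Rpl22 exonic bases were assembled in KO replicate 1, however, against 93.6% to 100% in the others, and over coding bases KO replicate 1 was the highest library, at 287 FPKM against 112 to 152 FPKM in the other 5. Its log2 difference was -0.31 ± 0.30 (SE, limma adjusted p = 0.572), and it was 0.32 without KO replicate 1 and 0.77 over coding bases. Fau differed by -0.04 ± 0.22 and Rpl13 by -0.03 ± 0.25 (SE, limma adjusted p = 0.916 and 0.955).

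Rps24 moved by 4.15 ± 1.83 (SE, limma adjusted p = 0.247), the widest positive difference. It was at 338 and 450.3 FPKM in replicate 1 of KO and WT, against 83.6 and 0 FPKM in KO replicates 2 and 3 and 57.6 and 46.2 FPKM in WT replicates 2 and 3. As with Rps27, the listed 0 came from the 300 nt minimum: with shorter fragments counted KO replicate 3 stood at 147 FPKM. The longest Rps24 transcript was 1184 and 676 nt in replicate 1 of KO and WT. It was 2578 nt in KO replicate 2 and 2574 and 2653 nt in WT replicates 2 and 3. The part of transcript length in the Rps24 difference was not tested. Whether the replicate 1 difference itself depended on genotype was tested by an interaction term. None of the 77 passed (smallest limma adjusted p = 0.469, for Rpl22), where 0.299% of all genes did, and 8 of 77 had an unadjusted p under 0.05, where the background was 5.51%.

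Level and length moved with the same split. Among the 239 other tested genes that averaged at least 100 FPKM and had under 2000 exonic bases, 86.6% were higher in replicate 1 with a median of 0.31. The 67 ribosomal protein genes of that band were higher in 64 cases with a median of 0.54. Among the 5853 other genes under 10 FPKM the median was -0.07. How a gene's level was computed mattered too: with the FPKM of a gene's transcripts summed without a length minimum, the median was 0.54 for the 77 genes and 0.53 for all genes, so the shift of all genes was then as large. With gene levels rescaled to the same sum per library, it was 0.35 for the 77 genes and -0.16 for all.

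Other genes of protein synthesis were higher in replicate 1 to differing degrees. All 7 tested elongation factors were higher (median log2 difference 0.53, 0 called), among them Eef1a1, which brings aminoacyl-tRNA to the ribosome, with 5819 and 6655 FPKM in replicate 1 of KO and WT against 4083, 4618, 4406 and 4166 FPKM in the other 4 libraries. Of the other genes known for TOP mRNAs, 13 of 14 were higher (median 0.34, 0 called), among them Rack1, a scaffold on the small subunit, with a mean of 580.3 FPKM in replicate 1 against 423 ± 24.8 FPKM in the other libraries (SD, n = 4). Of the initiation factors, 25 of 30 were higher (median 0.24, 1 called), and the helicase gene Eif4a1 rose to 567 and 610.3 FPKM in replicate 1 of KO and WT, against 312, 302, 377 and 352 FPKM (limma adjusted p = 0.0418).

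Mitochondrial ribosomal proteins, which build a separate ribosome, were higher in 69 of 77 cases (median 0.26, 1 called). The called gene, Mrpl24, was at 24.4 and 24.5 FPKM in replicate 1 of KO and WT, against 5.81 to 8.44 FPKM in the other 4 libraries (log2 difference 1.69 ± 0.12, limma adjusted p = 0.0286). The factors that assemble ribosomes in the nucleolus were higher in 36 of 62 cases (median 0.08, 0 called) and the RNA polymerase I list in 7 of 13 (0.15, 1 called lower, Ttf1). Chaperones of single ribosomal proteins were higher in 5 of 6 cases (0.14) and the mTORC1, S6 kinase and Myc list in 11 of 19 (0.15), with 0 called in each. By genotype, 0 genes of these lists were called, and their medians lay between -0.08 and 0.05.

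**Figure D5:**
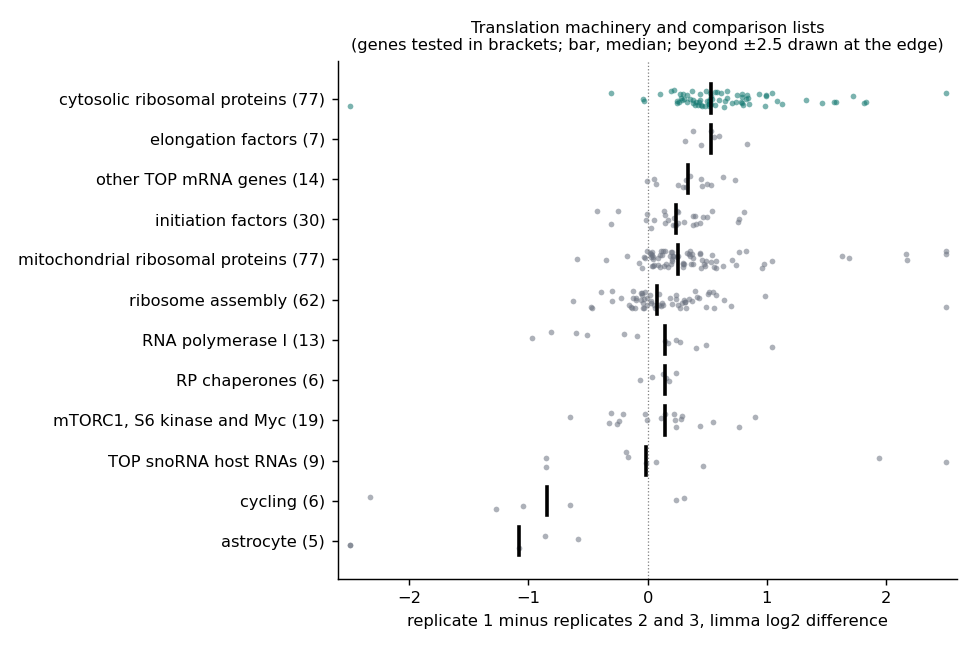
Limma log2 differences of replicate 1 minus replicates 2 and 3, 1 point per tested gene, for the ribosomal protein genes (green) and for other lists (grey), with the median as a bar. The ribosomal protein and elongation factor medians lie at 0.53, the ribosome assembly median at 0.08, and the cycling and astrocyte medians at -0.85 and -1.08.

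Genes close to the family but outside the symbol rule were measured too. Rps3a1, the mouse gene for the small subunit protein RPS3A, averaged 1007 FPKM in replicate 1 against 765 ± 61.9 FPKM in the other libraries (SD, n = 4), and the paralogue Rpl36al 53.1 FPKM against 29.9 ± 8.35 FPKM. Rpl22l1, the paralogue of Rpl22, was at 81.9 and 91.1 FPKM in replicate 1 of KO and WT and was listed at 0 in replicate 3 of both genotypes.

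Markers of cell state and of other cells moved with the replicate split. Of 6 cycling markers 4 were lower in replicate 1 (2 called), with Mki67 at 14.2 and 12.1 FPKM in replicate 1 of KO and WT, against 71.3 and 73.7 FPKM in KO replicates 2 and 3 and 67.4 and 68.4 FPKM in WT replicates 2 and 3 (limma adjusted p = 0.00655). All 5 astrocyte markers were lower (1 called), with summed levels of 149 and 95.8 FPKM in replicate 1, against 325 to 603 FPKM in the other libraries, and none was at 0. OPC markers were higher in 5 of 7 cases (median 0.21, 0 called). Of the erythroid list 1 gene was tested, the globin gene Hbb-bs, at 102 and 165 FPKM in replicate 1 of KO and WT, against 50.5, 28.3, 37.5 and 21.5 FPKM in the other 4 libraries (log2 difference 1.95, limma adjusted p = 0.0801), while Hba-a1 was listed at 0 in all 6. Neuronal markers were higher in 5 of 8 cases (median 0.21, 0 called), with summed levels of 156 and 295 FPKM in replicate 1 of KO and WT, against 132 to 155 FPKM in the other 4. Microglial markers were higher in 3 of 7 cases (1 called lower) and vascular and fibroblast markers in 3 of 6 (0 called). The part of these shifts, and of the shorter transcripts of WT replicate 1, in the ribosomal protein values was not tested. Within KO, the median transcript of the whole assembly was 1395 nt in replicate 1 against 1173 and 1830 nt in replicates 2 and 3. The median log2 difference of the 77 genes within KO was 0.39. The longest transcript per gene had a median over the 77 genes of 656 nt in KO replicate 1, against 675 and 735 nt in KO replicates 2 and 3. In WT this median was 648 nt in replicate 1, against 751 and 746 nt in replicates 2 and 3.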

How the data were processed

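RNA-seq of 6 libraries (3 KO, 3 WT) was available as 1 transcript assembly each, made with TopHat2 2.1.1 and Cufflinks 2.2.1 on mm10, per the submitters' processing notes. The deposited FPKM of each assembled transcript was used, with no scaling beyond what the authors did. Transcripts carry no gene names in these files and were matched by position to GENCODE M21 (basic). The FPKM of transcripts of 300 nt or more on the gene's strand, or with no strand, was summed at each exonic base that no other annotated gene shares (200 or more bases) and averaged over these bases. The sources used here do not say whether the libraries are stranded, so overlapping genes are uncertain. Genes that averaged at least 1 FPKM were tested with limma 3.58.1 (R 4.3.3, trended empirical Bayes, two-sided) on log2(FPKM + 1), Benjamini-Hochberg over all 12045 genes. Fold changes on this scale understate low genes. An exact permutation of 3 against 3 libraries could not go below p = 0.1.

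Library totals of reads were not used here, so no counting interval was given. Near-identical copies were found with BLAST 2.17.0. Deviations from the genotype means correlated between KO and WT libraries of 1 number (r across genes = 0.369, 0.197 and 0.293, against -0.277 to 0.0234 for other combinations), so the numbers of the titles were taken to pair the libraries, and a fit with a replicate block is quoted beside a count that it moves. On simulated data with 200 changed genes of 12045, the KO fit found 38% of the changed genes at 1 log2 unit and 72% at 2 log2 units, with 6 false calls among 116. The replicate 1 fit found 57% and 77%, with 8 false among 142. The simulated noise was drawn independently for each library, unlike the correlated deviations above, so these rates need not hold for the real libraries.

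The genes, the lists and the rule for naming genes were chosen with earlier results of these data known. Named with a test were the called genes, filled to 3 per direction by unadjusted p among those that averaged at least 10 FPKM. Named by level or role were the 5 highest and 5 lowest, the stalk, ubiquitin-fused, X-linked and 5S genes, Rps6, Rps19, the paralogues, genes at 0, and up to 2 genes of each other list. A further gene is not reported here. Rpl13, Rps15a, Rps12, Rpl17, Cspg4, P2ry12, Hba-a1 and the genes called without the genotype term were named after their values were seen. Alternatives covered the pseudocount, filters, length minimum, gene value, strand, scaling, weights and left-out libraries.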

Additional observations from a re-analysis of the deposited data

Results flagged for a closer look

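Among the 4 libraries of replicates 2 and 3, 4 of the 77 ribosomal protein genes (5.19%) had 1 library far from the other 3, with a gap past Dixon's 95% critical value. Chance gives such a gap in about 1 of 20 groups. Rpl13 stood at 810.3 FPKM in KO replicate 3, above 669.9, 665 and 685 FPKM in the other libraries. Rpl31 stood at 498.7 FPKM in the same library, above 356, 377 and 369.8 FPKM. Rpl36a stood at 447.1 FPKM in WT replicate 3, below 512, 516 and 522 FPKM. Rpl17 stood at 317.3 FPKM in WT replicate 2, above 97.1, 114 and 72.3 FPKM. Its longest transcript was 640 nt in WT replicate 2, against 2499 and 1587 nt in KO replicates 2 and 3 and 2694 nt in WT replicate 3. In addition, 22 other annotated genes hold a near-identical copy of Rpl17. The part of transcript length and of the copies in these levels was not tested.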

How the results depend on the processing

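For KO against WT, 0 ribosomal protein genes were called under any alternative run. The 1 gene called among all genes became 0 with a pseudocount of 0.1 or 5, a mean of 5 FPKM or more, summed FPKM (with or without the 300 nt minimum), levels rescaled to the same sum, or the replicate block, 2 with assembled bases only, 1 to 17 without 1 library in turn, and 27 without both replicate 1 libraries. The block left the median of the 77 genes at -0.02. For replicate 1, the 249 genes called among all became 8 with no length minimum, 70 with assembled bases only, 0 with summed FPKM, 8 with summed FPKM of transcripts of 300 nt or more, 778 rescaled to the same sum, 557 with array weights, 672 without the genotype term, 151 with coding bases only, and 5 to 46 without 1 library in turn. Ribosomal protein genes called became 4 without the genotype term. Their median log2 difference of 0.53 became 0.35 rescaled to the same sum, 0.39 in KO only and 0.64 in WT only, and 0.39 to 0.64 without 1 library. The 35 of 77 genes at an unadjusted limma p under 0.05 became fewer without WT replicate 1 or without KO replicate 1. Those among all genes became fewer too. The ratio of summed FPKM, 1.53, ran from 1.44 to 1.61 without 1 library. Rps27 turned to -0.46 (no length minimum) and -0.55 (summed FPKM) for KO, and to 0.18 and 0.07 for replicate 1. Rpl22 turned for replicate 1 to 1.06 with assembled bases only or summed FPKM (either minimum), 0.77 with coding bases and 0.32 without KO replicate 1 or in WT only, and ran down to -0.93 without WT replicate 1. Fau turned to 0.19 with assembled bases only or summed FPKM (either minimum), 0.11 without KO replicate 1 or in WT only, 0.12 without KO replicate 3, and was -0.19 without WT replicate 1. The coding bases and the sum over transcripts of 300 nt or more were added after seeing the data. Apart from Rps27 the cause was not tested. With 3 libraries per genotype and unknown read numbers, small differences were not detectable.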

Other observations

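Pseudogenes were counted here only if their symbol is that of a ribosomal protein gene followed by -ps, so copies under other names are left out. Of 294 such annotated pseudogenes, 288 had a level. Of these, 7, 7 and 9 were above 0 in KO replicates 1 to 3, against 6, 6 and 11 in WT replicates 1 to 3. Their summed level was 672, 556 and 618 FPKM in KO, against 756, 323 and 562 FPKM in WT, which is 0.896% to 1.68% of the sum of the 77 tested ribosomal protein genes. Among the noncoding host genes of small nucleolar RNAs that are known for TOP starts, 4 of 9 were higher and 5 lower in replicate 1 (median log2 difference -0.02). Snhg5 among them was at 17.6 and 16.0 FPKM in replicate 1 of KO and WT, against 28.9, 34.7, 30.7 and 30.7 FPKM in the other 4 libraries (log2 difference -0.85 ± 0.10, limma adjusted p = 0.0411).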
